A study of Mus musculus with 16 samples.

Results

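Open chromatin of fetal male mouse germ cells in mid-gestation (E13.5) was compared with that of early postnatal germ cells at postnatal day 3 (P3), the stages that lie before and after the mitotic arrest of gonocytes. The members were chosen by position alone. The E13.5 consensus consisted of the 31822 peaks of the *Morc1* heterozygous list that overlapped a peak of the *Morc1* knockout list by at least 1 bp, out of 40448 and 39559 peaks in those lists. The P3 list held 44760 peaks. Consensus peaks that met the P3 list were called shared (20652), the other consensus peaks E13.5-only (11170), and P3 peaks that met neither E13.5 list P3-only (19850). A further 4258 P3 peaks met 1 E13.5 list and were kept apart. Together the comparison covered 55930 regions, while the 6 distinct peak lists of the series held 302829 peaks.

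The assay was ATAC-seq, in which a transposase inserts adapters into accessible DNA. Germ cells came from testes of mice carrying the Mvh-Venus transgene, a fluorescent reporter of the germ cell gene Mvh (*Ddx4*), and were either *Morc1* (+/-) or *Morc1* (-/-). All groups shared the transgene, no *Morc1* wild-type group is among the labels, and the heterozygous animals stand as the controls of the series. The comparison used 4 groups of 2 samples (E13.5 and P3 in both genotypes), and the E16.5 and P0 groups served only to follow the classes through arrest. Each group was represented by 1 peak list with no height or score per peak, and the P3 lists of the genotypes were identical in every row, as were the P0 lists. Whether the P3 list came from both genotypes together or from 1 genotype and was deposited under both names is not given in the sources used here, so no P3 value below is assigned to a genotype. The same holds for P0. No value below has a spread between samples and no test over samples was possible. Shares are given with 95% Wilson intervals, which reflect the counting of peaks and no variation between samples, and the read depth behind a list is unknown.

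At E13.5 male germ cells have recently colonised the gonad, still divide, and express genes of the pluripotency network that they carry from the primordial germ cell stage. They then enter a long arrest as gonocytes (prospermatogonia), in which DNA methylation is rebuilt and transposons are silenced with the help of piRNAs. After birth they re-enter the cell cycle and give rise to spermatogonia, including the stem cells of the testis. MORC1 is an ATPase needed for the silencing of transposons in the male germline.

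Gene starts whose peak was listed at one stage and not at the other are shown here through 6 promoters, because these genes stand for the roles described below. They were not chosen for base composition. Each is the 250 bases before a RefSeq transcript start (assembly GRCm38.p6), 5′ to 3′ along the gene, with CG dinucleotides in capitals. In *Nanog*, *Lin28a* and *Fgf4* both E13.5 lists held a start peak and the P3 list did not. In *Tcl1*, *Sohlh1* and *Piwil1* the P3 list held one and neither E13.5 list did.
Nanog, chr6:122707239-122707488, plus strand: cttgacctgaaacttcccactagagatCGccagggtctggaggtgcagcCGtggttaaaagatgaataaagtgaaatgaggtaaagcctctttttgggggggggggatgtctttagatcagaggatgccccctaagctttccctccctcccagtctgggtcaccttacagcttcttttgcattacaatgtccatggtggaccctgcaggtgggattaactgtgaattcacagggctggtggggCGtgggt
Lin28a, chr4:134018817-134019066, minus strand: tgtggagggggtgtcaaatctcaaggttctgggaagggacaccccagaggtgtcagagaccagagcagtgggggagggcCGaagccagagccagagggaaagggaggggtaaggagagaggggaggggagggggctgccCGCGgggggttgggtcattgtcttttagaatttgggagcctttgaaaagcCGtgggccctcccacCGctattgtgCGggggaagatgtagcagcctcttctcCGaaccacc
Fgf4, chr7:144861136-144861385, plus strand: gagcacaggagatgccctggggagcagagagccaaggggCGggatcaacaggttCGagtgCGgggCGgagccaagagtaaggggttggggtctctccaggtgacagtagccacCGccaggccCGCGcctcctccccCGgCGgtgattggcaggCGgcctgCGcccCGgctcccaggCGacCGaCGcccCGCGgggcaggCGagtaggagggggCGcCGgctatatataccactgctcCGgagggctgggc
Tcl1, chr12:105222738-105222987, minus strand: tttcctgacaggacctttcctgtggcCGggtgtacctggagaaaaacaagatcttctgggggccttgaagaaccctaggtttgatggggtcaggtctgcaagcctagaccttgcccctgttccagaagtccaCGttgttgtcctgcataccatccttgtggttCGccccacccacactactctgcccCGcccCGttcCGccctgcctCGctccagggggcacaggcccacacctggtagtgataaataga
Sohlh1, chr2:25847249-25847498, minus strand: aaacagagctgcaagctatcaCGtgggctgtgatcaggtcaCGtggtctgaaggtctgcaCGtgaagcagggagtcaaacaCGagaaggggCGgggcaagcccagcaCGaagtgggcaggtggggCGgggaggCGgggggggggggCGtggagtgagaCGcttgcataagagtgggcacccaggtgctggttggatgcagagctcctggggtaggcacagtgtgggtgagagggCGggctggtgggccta
Piwil1, chr5:128735996-128736245, plus strand: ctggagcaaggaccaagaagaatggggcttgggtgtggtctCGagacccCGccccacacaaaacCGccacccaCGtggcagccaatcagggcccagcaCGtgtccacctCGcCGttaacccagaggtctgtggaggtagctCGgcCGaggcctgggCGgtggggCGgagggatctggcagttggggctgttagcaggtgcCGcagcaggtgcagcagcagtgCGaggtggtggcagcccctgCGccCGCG
The printed stretch of *Nanog* held 3 CG dinucleotides, that of *Lin28a* 7 and that of *Fgf4* 21. Those of *Tcl1*, *Sohlh1* and *Piwil1* held 7, 11 and 16. The letters CACGTG, an E-box, occurred 3 times in the *Sohlh1* stretch and 2 times in the *Piwil1* stretch.

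Of the E13.5 consensus, 64.9% (64.4 to 65.4%) was found again at P3, and 46.1% (45.7 to 46.6%) of the P3 list lay in the consensus. P3-only peaks made up 44.3% (43.9 to 44.8%) of the P3 list, and those meeting 1 E13.5 list 9.51% (9.24 to 9.79%). The classes were rarely decided at a peak's edge. Shared peaks overlapped their P3 partner by a median of 469 bp out of a usual width of 501 bp, 83.4% by over 400 bp and 59 by 1 to 50 bp. On the other side of the line, 107 E13.5-only peaks had a P3 peak less than 100 bp away, and 362 (3.24%) had one less than 500 bp away.

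Shared peaks lay mainly at gene starts, E13.5-only peaks mainly inside genes and P3-only peaks mainly between genes. A gene start of any annotated gene lay within 1000 bp of 60.1% (59.4 to 60.8%) of shared peaks, 12.9% (12.3 to 13.6%) of E13.5-only peaks and 10.9% (10.4 to 11.3%) of P3-only peaks. Of E13.5-only peaks, 50.1% (49.1 to 51.0%) lay in a gene away from its start, against 29.4% (28.8 to 30.1%) of P3-only and 20.3% (19.7 to 20.8%) of shared peaks. Between genes the order turned round, with 59.7% (59.0 to 60.4%) of P3-only, 37.0% (36.1 to 37.9%) of E13.5-only and 19.6% (19.104 to 20.2%) of shared peaks. The P3 peaks that met 1 E13.5 list stood between these, with 17.5% (16.4 to 18.7%) at gene starts and 46.7% (45.2 to 48.2%) between genes. When the E13.5 heterozygous list was used alone in place of the consensus, the gene start shares of E13.5-only and P3-only peaks were 11.5% and 11.7%, so their order turned.

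**Figure D1:**
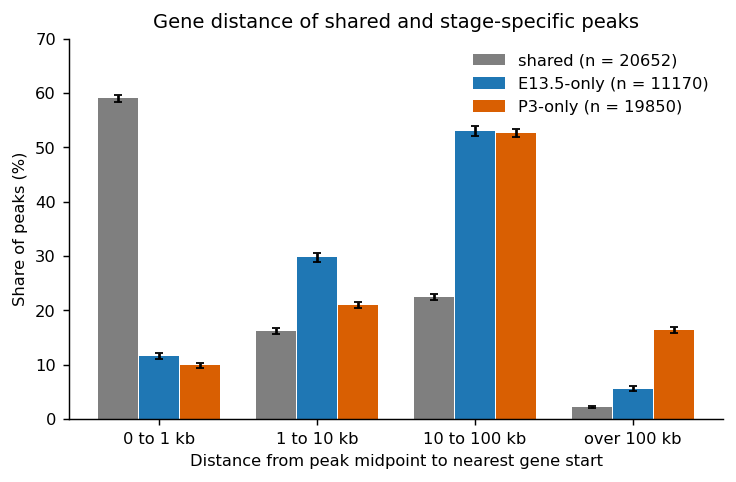
Share of shared, E13.5-only and P3-only peaks (vertical axis, percent) by distance from the peak's midpoint to the nearest gene start (horizontal axis, 4 ranges in kb). Bars are shares with 95% Wilson intervals; shared peaks fall mostly within 1 kb (59.0%), and 16.4% of P3-only peaks lie over 100 kb away against 5.61% of E13.5-only peaks.

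Distances carried the same order. The median distance from a peak's midpoint to the nearest gene start was 234.5 bp for shared, 13676.5 bp for E13.5-only and 23093 bp for P3-only peaks. At over 100 kb from any start lay 2.25% (2.06 to 2.46%) of shared, 5.61% (5.20 to 6.06%) of E13.5-only and 16.4% (15.9 to 17.0%) of P3-only peaks. The plot of gene distance shows that the E13.5-only and P3-only classes stood at 53.0% and 52.7% between 10 and 100 kb and parted below 10 kb and above 100 kb. The autosomes together held 1.77 P3-only peaks per E13.5-only peak, from 1.19 on chromosome 11 to 2.40 on chromosome 5, with 1.90 on the X.

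E13.5-only peaks had mostly left the lists by E16.5, whereas most P3-only peaks were listed before P3. Of E13.5-only peaks, the heterozygous E16.5 list held 21.3% (20.5 to 22.1%) and the knockout E16.5 list 25.3% (24.5 to 26.2%), while 15.6% (14.9 to 16.2%) were listed at P0 and 66.7% (65.8 to 67.5%) in none of the 3. Of P3-only peaks, the heterozygous E16.5 list held 56.7% (56.0 to 57.4%) and the knockout E16.5 list 60.4% (59.7 to 61.0%), while 77.9% (77.3 to 78.4%) were listed at P0 and 17.1% (16.6 to 17.6%) in none. Both E16.5 lists and the P0 list held 47.5% (46.8 to 48.2%) of P3-only and 8.37% (7.87 to 8.90%) of E13.5-only peaks. Shared peaks were nearly continuous, 83.3% (82.8 to 83.8%) being in all 3 of these lists and 4.28% (4.01 to 4.56%) in none. These lists differ in length, with 53687 peaks in E16.5 heterozygous cells, 57117 in E16.5 knockout cells and 67258 at P0, and a longer list can hold more of any class. The part of list length in these shares was not tested.

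**Figure D2:**
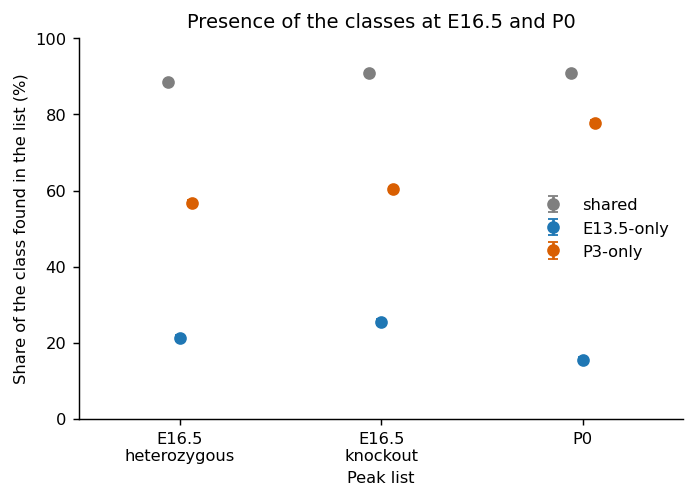
Share of each class (vertical axis, percent) found at P0 and in either E16.5 list (horizontal axis). Points are shares with 95% Wilson intervals; shared peaks lie between 88.5 and 90.9%, P3-only peaks between 56.7 and 77.9%, and E13.5-only peaks between 15.6 and 25.3%.

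Position divided the E13.5-only peaks in time. Of the 1446 at gene starts, 40.9% (38.4 to 43.4%) were still listed at P0 and 40.5% (38.0 to 43.1%) were in none of the later 3 lists. Of the 9724 away from starts, 11.8% (11.2 to 12.4%) were listed at P0 and 70.6% (69.6 to 71.5%) were in none. P3-only peaks were listed at P0 in 80.5% (78.8 to 82.1%) of cases at starts and 77.5% (76.9 to 78.2%) elsewhere.

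Among 21883 protein-coding genes, 651 had a start peak in both E13.5 lists and none at P3 (2.97%), and 505 had one at P3 and in neither E13.5 list (2.31%). Put against the genes that had a start peak to begin with, 5.06% of the 12871 with a start peak in both E13.5 lists had none at P3, and 3.88% of the 13015 with one at P3 had none at E13.5. Over all 49939 annotated genes, non-coding ones included, the counts were 1258 (2.52%) and 1924 (3.85%), so the direction with more genes depended on which genes were counted. The gene lists below are read against the 5.06% and 3.88%. In these bulk samples, a peak missing from a list can reflect fewer cells open at a site or a weaker opening in each cell, and the lists cannot tell these apart.

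Pluripotency and primordial germ cell genes held the most E13.5-only starts of the lists examined. Of 30 such genes, 21 had a start peak in both E13.5 lists, and 7 of these 21 had none at P3, namely *Nanog*, *Prdm14*, *Lin28a*, *Utf1*, *Ifitm3*, *Fgf4* and *Trim71*. *Nanog* encodes a homeodomain factor of the pluripotency network, and its E13.5 peaks lay at chr6:122707116-122707616 in the heterozygous and chr6:122707099-122707599 in the knockout list. Their midpoints lay at -123 and -140 bp from the start, within the sequence printed above. After E13.5, *Nanog* had a start peak in the E16.5 knockout list alone. *Prdm14*, a factor that sets up the primordial germ cell state, had its peaks at chr1:13127013-13127513 and chr1:13126998-13127498, and none in any list after E13.5. *Lin28a*, an RNA-binding protein that blocks let-7 microRNAs, had peaks at chr4:134018658-134019158 and chr4:134018871-134019371 and likewise none later. *Ifitm3*, which codes for a membrane protein of early germ cells, followed the same course.

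*Utf1*, *Fgf4* and *Trim71* kept a start peak longer. All of them had one at P0 and in both E16.5 lists, so that of the 6 lists the P3 list alone lacked it. *Utf1* encodes a chromatin protein of pluripotent cells and of undifferentiated spermatogonia, and its E13.5 heterozygous peak lay at chr7:139943615-139944115. *Fgf4*, a growth factor gene, had its peak at chr7:144861023-144861523. In the other direction, 3 of the 17 genes with a start peak at P3 had none at E13.5. These were *Tcl1*, a cofactor of the AKT kinase (chr12:105222550-105223050), *Dppa2*, a chromatin factor of early embryos and germ cells, and *Gdf3*, a TGF-beta family ligand.

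Members of the network were not uniform. *Sox2* kept a start peak in all 6 lists, and *Pou5f1* (OCT4) had one at P0 and in both E16.5 lists, and none at E13.5 or P3. Around *Prdm1*, which encodes BLIMP1, a repressor needed for germ cell specification, the start peak was listed at every stage. Within the gene's bounds and 10 kb on each side, however, *Prdm1* had 9 E13.5-only and 1 P3-only peak. The 9 lay between -100.4 and -8.1 kb from the gene's upper end on chromosome 10, 2 of them were in both E16.5 lists and 0 were at P0. Over the whole pluripotency list, 36 E13.5-only and 10 P3-only peaks lay in or within 10 kb of the genes. More E13.5-only than P3-only peaks occurred at 16 of the 30 genes and the reverse at 3, and the median difference was -1 peak. Over all protein-coding genes 19.9% had more E13.5-only and 16.2% more P3-only peaks, with a median difference of 0.

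*Nodal* signalling, which is active for a short time in fetal male germ cells, showed its ligand and inhibitor on the E13.5 side and its co-receptor on the P3 side. Of 10 listed genes with a start peak in both E13.5 lists, *Nodal* and its inhibitor *Lefty1* had none at P3. The *Nodal* peaks lay 232 and 292 bp downstream of the start, at chr10:61417954-61418454 and chr10:61418014-61418514, and the gene was also listed in E16.5 knockout cells and at P0. *Lefty1* was listed at E13.5 alone. *Tdgf1* (CRIPTO), the co-receptor, had a start peak at P0 and P3 and in no earlier list.

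In the FGF, GDNF and KIT list, 17 of 22 genes with start peaks in both E13.5 lists kept them at P3, 5 had none at P3, and 0 genes were P3 only. The 5 were the ligands *Fgf4*, *Fgf8* and *Fgf9*, the neurturin receptor *Gfra2* and the feedback inhibitor *Spry4*. *Fgf9* had a start peak in neither E16.5 list nor at P0, whereas *Fgf4*, *Fgf8*, *Gfra2* and *Spry4* kept theirs up to P0. The receptor genes *Kit* and *Ret* had start peaks in all 6 lists. In the WNT list, *Lef1* and *Sp5*, a DNA-binding partner and a target gene of beta-catenin, and the ligand enhancer *Rspo1* were E13.5 only among 30 genes with E13.5 starts, and the ligand *Wnt3* was P3 only. Among 15 retinoic acid genes with E13.5 starts, the receptor *Rxrb* and the retinaldehyde reductase *Dhrs3* were E13.5 only and 0 were P3 only. Peaks in and within 10 kb of the genes numbered 18 E13.5-only against 14 P3-only for the FGF, GDNF and KIT list, 24 against 23 for the WNT list and 12 against 20 for the retinoic acid list. The retinoic acid list thus had more P3-only than E13.5-only peaks. A P3 start was held by 14 retinoic acid genes and by 18 genes of the FGF, GDNF and KIT list. With so few, 0 P3-only starts is near the general 3.88% in both lists.

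Of 23 spermatogonial stem cell genes with a start peak in both E13.5 lists, 17 kept it and 6 had none at P3 (*Bcl6b*, *Lhx1*, *Zfp462*, *Egr4*, *Utf1* and *Mcam*). Of the 17 genes with a P3 start 0 were P3 only, which is near the general 3.88%. Peaks in and around the genes were closer to even, with 18 E13.5-only and 12 P3-only, and 8 genes with more E13.5-only against 7 with more P3-only peaks. *Bcl6b* and *Lhx1* encode transcription factors that act downstream of GDNF in stem cell self-renewal. The other well known members *Etv5*, *Id4*, *Zbtb16* and *Ret* had start peaks in all 6 lists, and *Gfra1*, the GDNF receptor, in the E13.5 heterozygous and P0 lists alone. *Nanos2*, an RNA-binding protein of male germ cell fate, had no start peak in any list.

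Differentiation and piRNA genes kept every start peak that both E13.5 lists held, and each list had 2 P3-only starts. Over all protein-coding genes, 5.06% of E13.5 starts had no peak at P3 and 3.88% of P3 starts were P3 only. With 9 and 24 genes, keeping every start is therefore near the general share. Of 21 spermatogonial differentiation genes, 9 had a start peak in both E13.5 lists and all 9 kept it at P3, while *Sohlh1* and *Ctcfl* were P3 only, 2 of the 13 with a P3 start. *Sohlh1* encodes a helix-loop-helix factor of differentiating spermatogonia (peak at chr2:25847171-25847671, midpoint at -173 bp from the start) and *Ctcfl* (BORIS) the germ cell paralogue of CTCF (chr2:173119109-173119609). Of 34 piRNA and transposon silencing genes, 24 had start peaks in both E13.5 lists and all 24 kept them. *Piwil1* (MIWI), a PIWI protein best known from later spermatogenic cells (chr5:128735949-128736449), and *Gtsf1*, a PIWI cofactor (chr15:103430208-103430708), were P3 only, 2 of the 27 with a P3 start. Peaks in and around the genes leaned to the E13.5 side, with 12 E13.5-only against 9 P3-only peaks for the differentiation list and 16 against 11 for the piRNA list. Over all protein-coding genes the lean was the same, with 8691 against 7866 peaks summed over genes. More E13.5-only than P3-only peaks occurred at 7 differentiation genes and the reverse at 4, and at 10 and 6 piRNA genes. *Sohlh1*, *Ctcfl*, *Piwil1* and *Gtsf1* had start peaks at P0 and in both E16.5 lists as well, so each was first listed at E16.5. Another 2 differentiation genes had a start peak at P3 and in 1 E13.5 list.

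Meiotic genes were mostly accessible at both stages. Of 38, 30 had shared start peaks. *Spo11*, which makes meiotic DNA breaks, was E13.5 only, and its start peak was in no later list. *Majin*, which ties telomeres to the nuclear envelope, was P3 only, and so was *Taf7l*, a TFIID subunit. The *Taf7l* call rests on a peak shared by both stages whose position shifted across the edge of the 1000 bp window. *Stra8*, the retinoic acid target at meiotic entry, had a start peak in the E13.5 knockout list, at P0 and at P3.

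Genes of cell division and of DNA methylation mostly had start peaks at both stages. Of 38 cell cycle drivers 34 had shared start peaks, and *Mycn*, a MYC family factor (chr12:12941731-12942231), was the 1 E13.5-only gene, listed in both E16.5 lists and not at P0. Among 19 arrest and inhibitor genes with E13.5 starts, the ligands *Tgfb1* and *Tgfb3* were E13.5 only. Of 15 DNA methylation genes with E13.5 starts, *Tet1*, which oxidises 5-methylcytosine (chr10:62887091-62887591), was E13.5 only. It stayed listed at P0 and in both E16.5 lists, and 14 of the 15 had shared starts.

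**Figure D3:**
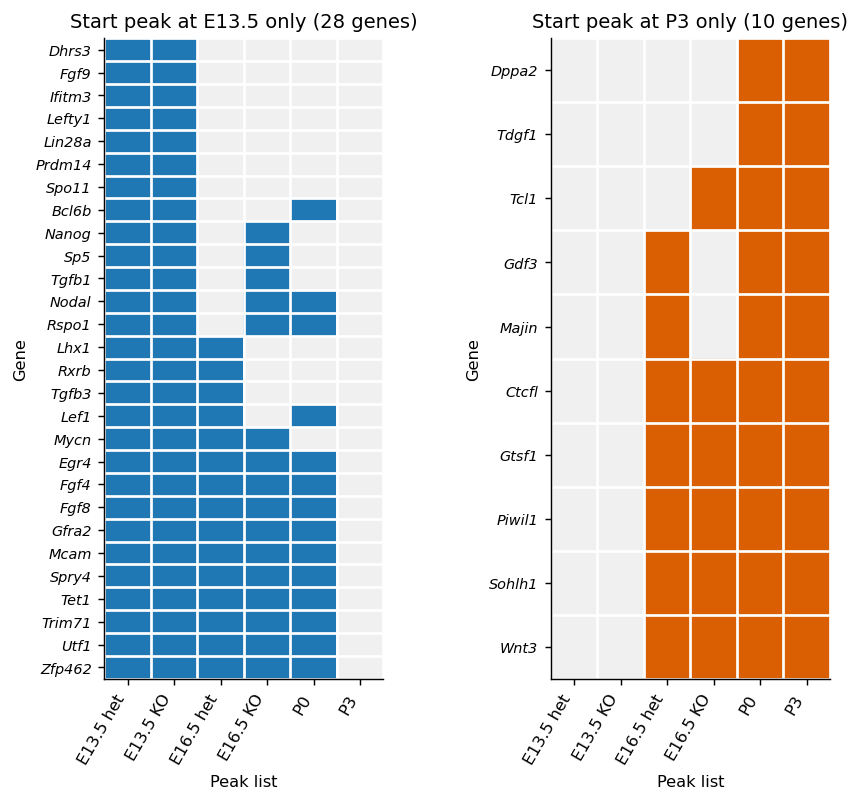
Presence (coloured) or absence (grey) of a start peak in each of the 6 lists (columns) for listed germ cell, signalling and cell cycle genes (rows) whose start was E13.5 only (left, 28 genes) or P3 only (right, 10 genes). On the left 7 genes are coloured at E13.5 alone and 10 up to P0; on the right 5 genes are coloured from E16.5 onward. Genes whose call rests on a shifted shared peak are left out.

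Together these lists named 28 genes with E13.5-only starts and 10 with P3-only starts that rested on a peak of that class. The chart of start peaks by list shows that 7 of the 28 (*Dhrs3*, *Fgf9*, *Ifitm3*, *Lefty1*, *Lin28a*, *Prdm14* and *Spo11*) were listed at E13.5 alone. A further 10 (*Egr4*, *Fgf4*, *Fgf8*, *Gfra2*, *Mcam*, *Spry4*, *Tet1*, *Trim71*, *Utf1* and *Zfp462*) were listed in every list but P3. Of the 10 P3-only genes, 5 were already at P0 and in both E16.5 lists (*Ctcfl*, *Gtsf1*, *Piwil1*, *Sohlh1* and *Wnt3*), and all 10 were at P0. Over the 651 protein-coding genes with E13.5-only starts, 60.1% had a start peak at P0 and 21.0% in none of the later 3 lists. Over the 505 with P3-only starts, 88.5% had one at P0 and 7.52% in none.

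The label of the cells was checked against markers. Of 20 germ cell identity genes 17 had shared start peaks, with 0 in either stage-specific class, and *Ddx4* and *Dazl* had one in all 6 lists. Of 18 Sertoli cell markers 11 had no start peak in the lists compared, and of 16 Leydig and interstitial markers 8. Of 7 peritubular myoid markers 3 had none, of 11 endothelial markers 5 and of 14 macrophage and blood markers 10. Over all protein-coding genes, 35.7% had none and 55.8% had a shared start peak. *Sox9*, *Amh*, *Dhh*, *Star*, *Insl3*, *Cyp17a1*, *Pecam1*, *Cdh5*, *Ptprc* and *Csf1r* were among the markers with none. Other somatic markers had shared start peaks, the Sertoli marker *Aard* among them. These were 5 Sertoli, 5 Leydig and interstitial, 2 myoid, 3 endothelial and 3 macrophage and blood markers. Somatic markers in a stage-specific class were *Wt1*, *Tcf21* and *Flt1* on the E13.5 side and *Fshr*, *Acta2*, *Esam* and *Mrc1* on the P3 side, 1 to 2 per list. The *Tcf21* call rests on a heterozygous peak (chr10:22819229-22819729) and a knockout peak (chr10:22819826-22820326) that do not overlap. It therefore has no consensus peak behind it. In and within 10 kb of the 7 myoid markers lay 0 E13.5-only and 5 P3-only peaks. The counts were 5 against 4 for Sertoli, 6 against 1 for Leydig and interstitial, 5 against 6 for endothelial and 3 against 5 for macrophage and blood markers. Myoid start peaks numbered 2 and 3 in the E13.5 heterozygous and knockout lists, 6 at P0 and 4 at P3. An open start is not expression, and the part of other cell types in the classes was not tested.

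Several families of developmental transcription factors had E13.5-only starts. Of the Pax genes, 3 of 4 with E13.5 starts had none at P3 (*Pax1*, *Pax2* and *Pax3*). The same held for 3 of 7 T-box genes, *Tbr1* among them, and for *Lhx1* and *Lhx3* out of 4 Lhx genes. At P3 only 1 Pax, 4 T-box and 3 Lhx genes had a start peak. The 0 P3-only genes of these 3 families are therefore near the general 3.88% of P3 starts. Klf and Sp factors had 1 gene on each side, GATA and ETS factors 0 on both, and the Rhox homeobox genes 1 on the P3 side and 0 on the E13.5 side. These families stand in a set examined after the values were known. Housekeeping families were mostly shared, with 75 of 82 ribosomal protein genes and 35 of 39 proteasome genes shared, and 289 of 367 Zfp zinc finger genes. Among clustered protocadherins, cell surface proteins encoded in a tandem array on chromosome 18, 20 genes had E13.5-only starts, but these rested on 7 peaks, and the gene ends used there come without strand.

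Among chemoreceptor genes most starts (1052 of 1106 olfactory and 349 of 353 vomeronasal receptor genes) had no peak at E13.5 or P3. Of the 1106 olfactory receptor genes, which are odorant receptors of the nose laid out in large clusters, 46 had a start peak at P3. Of these 46, 37 were P3 only, and 1 gene had an E13.5-only start (over all protein-coding genes, 3.88% of P3 starts and 2.31% of genes were P3 only). The 37 rested on 37 separate peaks on 12 chromosomes. Of these genes 33 had a start peak at P0, and at E16.5 the heterozygous list had 19 and the knockout list 22. Many of the 37 genes are shorter than the 1000 bp window, so a start peak there can lie over the gene body. P3 midpoints lay at 677 bp from the start in *Olfr123* (930 bp long) and 716 bp in *Olfr139* (948 bp long), but at -621 bp in *Olfr228*. Around 282 olfactory receptor genes there were more P3-only than E13.5-only peaks, and around 20 the reverse. Of the 353 vomeronasal receptor genes, the pheromone receptors, 2 had a P3-only and 1 an E13.5-only start. Peaks within 10 kb of these genes gave 82 genes with more P3-only peaks against 7 with more E13.5-only peaks, where 16.2% and 19.9% of all protein-coding genes stood on these sides. Neighbouring genes share peaks within the 10 kb flanks, so these genes are not independent. Of 49 keratin genes 11 had a start peak at P3. Of these 11, 8 were P3 only, and *Krt18* was the 1 E13.5-only gene. More P3-only peaks occurred at 18 keratin genes and more E13.5-only peaks at 8. All 8 P3-only starts were listed at P0, and 1 or 2 of them in the E16.5 lists.

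The 10 genes per direction with the largest difference between P3-only and E13.5-only peaks were mostly long. On the P3 side, *Lrp1b*, a lipoprotein receptor gene of 2058.3 kb, had 30 P3-only and 3 E13.5-only peaks within its bounds and 10 kb, and *Naaladl2* had 27 and 2 over 1346.0 kb. The cadherin genes *Cdh18* and *Cdh12* had 22 against 1 and 18 against 2. The next in order were *Epha6*, *Lrrc4c*, *Gpc6*, *Lingo2*, *Ralyl* and *Skint6*, each with 13 to 16 P3-only peaks. On the E13.5 side, the largest differences were at *Ptprn2* (13 against 3), *Arhgap26* (11 against 2), *Diaph3* (9 against 0), *Utrn* (10 against 1), *Elmo1* (10 against 2) and *Prdm1* (9 against 1), followed by *Nav2*, *Xylt1*, *Aim2* and *Btbd9*. Among these 10, *Prdm1* was the shortest, at 91.4 kb. Counts were not divided by length.

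P3-only peaks gathered in windows without genes. Only the 2548 windows of 1 Mb that held a peak were counted, so the means leave out windows without any. In the 221 of them without a protein-coding gene, the mean per window was 14.25 P3-only, 1.38 E13.5-only and 1.34 shared peaks. P3-only peaks outnumbered E13.5-only peaks in 215 of these 221. In 291 windows with 20 or more protein-coding genes the means were 6.502, 6.12 and 19.01. Such gene-free windows held 15.9% (15.4 to 16.4%) of P3-only, 2.72% (2.44 to 3.04%) of E13.5-only and 1.44% (1.28 to 1.61%) of shared peaks. At least 20 P3-only peaks occurred in 126 windows, of which 61 had no protein-coding gene and 46 no E13.5-only peak. At least 20 E13.5-only peaks occurred in 3.

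**Figure D4:**
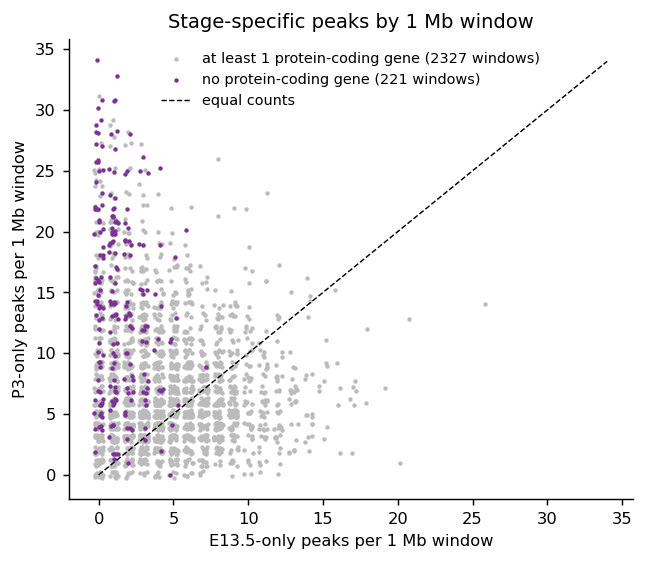
Number of E13.5-only (horizontal axis) and P3-only (vertical axis) peaks in each of the 2548 windows of 1 Mb that held a peak. Points are moved at random by up to 0.3 to part equal values. Purple points are the 221 windows without a protein-coding gene, which lie at low E13.5-only counts with up to 34 P3-only peaks; the dashed line marks equal counts.

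The densest window was chr8:52000001-53000000, with 34 P3-only peaks at a median spacing of 23.1 kb and no peak in either E13.5 list. It held 39 peaks in E16.5 heterozygous cells, 36 in E16.5 knockout cells and 69 at P0. Next came chr10:48000001-49000000 with 33 P3-only peaks and 1 E13.5-only peak, where the P0 list again held 69. The 126 dense windows, chosen on the P3-only count, held 9.70% (9.45 to 9.95%) of the E16.5 heterozygous, 8.70% (8.47 to 8.93%) of the E16.5 knockout and 10.4% (10.2 to 10.7%) of the P0 list. Of the P3 list itself they held less, 7.95% (7.70 to 8.20%), and of the E13.5 heterozygous and knockout lists 2.10% and 2.07%. Peaks per dense window numbered 41.32 in E16.5 heterozygous cells, 39.43 in E16.5 knockout cells, 55.76 at P0 and 28.24 at P3. P3-only peaks in these windows were found at P0 in 88.6% (87.5 to 89.7%) of cases, against 76.0% (75.3 to 76.6%) of those elsewhere. On the E13.5 side, chrX:99000001-100000000, with *Stard8*, *Efnb1*, *Pja1*, *Tmem28* and *Eda*, held 20 E13.5-only against 1 P3-only peak. Next in order of difference were chr18:35000001-36000000 with 17 against 2, chr4:57000001-58000000 with 16 against 2, chr10:44000001-45000000, with *Prdm1*, with 19 against 7, and chr12:100000001-101000000 with 15 against 3.

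Promoters of the classes differed in base composition. In the 300 bases around each RefSeq start of a protein-coding gene (250 before, 50 after), the median number of CG dinucleotides was 22 for shared starts (11570 promoters), 14 for E13.5-only starts (643), 7 for P3-only starts (468) and 3 for starts without a peak (7971). A ratio of observed to expected CG of at least 0.6 was found in 77.01% (76.2 to 77.8%), 47.4% (43.6 to 51.3%), 14.7% (11.8 to 18.2%) and 8.66% (8.06 to 9.29%), and in 47.7% of all promoters. The 6 printed promoters do not show this contrast. Among them the E13.5-only promoters had ratios of 0.77 (*Fgf4*), 0.35 (*Lin28a*) and 0.19 (*Nanog*), and the P3-only ones 0.46 (*Tcl1*), 0.53 (*Sohlh1*) and 0.54 (*Piwil1*).

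**Figure D5:**
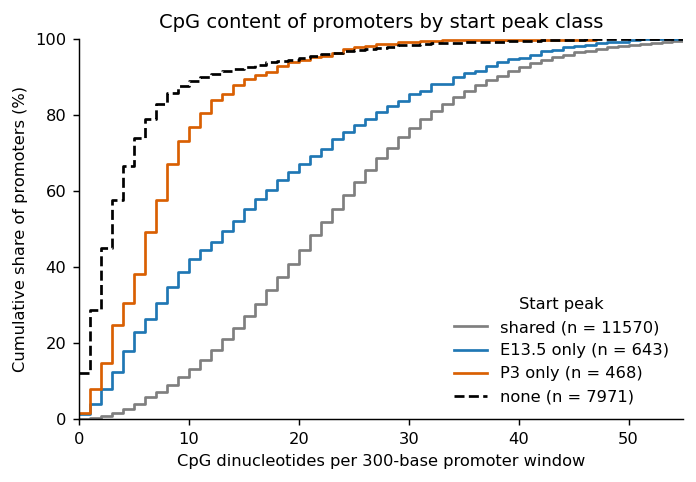
Cumulative share of promoters (vertical axis, percent) by the number of CG dinucleotides in the 300-base window (horizontal axis) for protein-coding starts with a shared, E13.5-only, P3-only or no start peak. The curves stand apart in the order no peak, P3 only, E13.5 only and shared, with medians of 3, 7, 14 and 22.

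Motif letters were searched on both strands of the same windows. The GC box GGGCGG occurred in 68.8% (67.9 to 69.6%) of shared, 51.8% (47.9 to 55.6%) of E13.5-only and 27.6% (23.7 to 31.8%) of P3-only promoters, and in 46.2% of all. The ETS letters CCGGAAG occurred in 18.3% (17.6 to 19.06%) of shared promoters but in 4.82% (3.42 to 6.76%) of E13.5-only and 4.92% (3.30 to 7.27%) of P3-only ones (11.6% of all). The TATA box TATAAA stood in 5.83% (5.42 to 6.28%), 9.02% (7.04 to 11.5%) and 14.7% (11.8 to 18.2%), and in 12.6% of all. The GATA letters AGATAA stood in 5.40% (5.005 to 5.83%), 6.998% (5.27 to 9.24%) and 14.3% (11.4 to 17.8%), and in 9.65% of all. CACGTG, found repeatedly in the *Sohlh1* and *Piwil1* stretches, occurred in 10.7% (10.1 to 11.2%) of shared, 5.44% (3.94 to 7.48%) of E13.5-only and 8.76% (6.52 to 11.7%) of P3-only promoters, and in 7.84% of all. Promoters without a start peak held TATAAA in 22.8% and AGATAA in 15.7% of cases, both above the P3-only shares. They held GGGCGG in 14.7%, CCGGAAG in 3.07% and CACGTG in 3.81%, each below the P3-only share. The part of base composition in these shares was not tested, and a match is not a binding site.

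Of 1228 annotated microRNA genes, 32 (2.61%) had a start peak at E13.5 only, 24 (1.95%) at P3 only and 113 (9.20%) at both. Over all annotated genes these shares were 2.52, 3.85 and 30.55%. These shares are over genes with and without a start peak. No start peak at E13.5 or P3 was found for 83.1% of microRNA genes, against 59.7% of all annotated genes. Beside their 113 shared starts, the 32 E13.5-only and 24 P3-only microRNA genes were relatively more. Over all annotated genes, 1258 and 1924 stood beside 15256 shared starts. MicroRNAs are short RNAs that pair with target transcripts through bases 2 to 8, the seed, shown in capitals below. The following, credited to RefSeq, were picked after their values were seen, as well known families from each class. The E13.5-only genes are *Mir200c*, *Mir10b* and *Mir191*. The P3-only genes are *Mir202*, *Mir181a-1*, *Mir181b-1* and *Mir9-1*.
mmu-miR-200c-3p: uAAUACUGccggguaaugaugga
mmu-miR-10b-5p: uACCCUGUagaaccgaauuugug
mmu-miR-191-5p: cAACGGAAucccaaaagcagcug
mmu-miR-202-5p: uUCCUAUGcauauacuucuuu
mmu-miR-181a-5p: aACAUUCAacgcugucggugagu
mmu-miR-181b-5p: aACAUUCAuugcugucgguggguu
mmu-miR-9-5p: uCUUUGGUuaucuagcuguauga
The peaks of *Mir10b* (chr2:74727127-74727627, beside *Hoxd3* and *Hoxd4*) and *Mir191* (chr9:108567035-108567535) were in no list after E13.5, and the peak of *Mir200c* (chr6:124719354-124719854) was found at P0. *Mir181a-1* and *Mir181b-1* share the seed ACAUUCA and 1 P3-only peak (chr1:137966296-137966796), which the E16.5 knockout list also held. *Mir202*, a gonadal microRNA encoded close to *Utf1*, had its P3-only peak at chr7:139957908-139958408, listed in E16.5 heterozygous cells but not at P0. The *Mir9-1* peak (chr3:88214273-88214773) was at P0 and in both E16.5 lists. Ends of host transcripts lie near several of these genes, so a peak may belong to either.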

How the data were processed

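Samples were grouped by title, 2 per stage and genotype, and nothing in the labels says that they came from separate animals. The authors deposited 3-column peak lists holding positions only, which is not a measured unit, so the lists were compared by overlap. The submitters' processing notes name mm10 and bcl2fastq 2.20, cutadapt 1.18, Bowtie2 2.3.4.1, deepTools 3.5.0 and HOMER 4.10, with no role. Peak caller settings, threshold and pooling of samples are not given in the sources used here. Fixed widths of 501 bp hide differences in breadth.

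Overlap needed 1 bp. Gene starts were RefSeq starts (GRCm38.p6) where the promoter table had one (17491 of 21883 protein-coding genes) and both outer ends otherwise. A start peak lay within 1000 bp of a start. Among genes named above with an E13.5-only or P3-only start, *Bcl6b*, *Ctcfl*, *Dppa2*, *Esam*, *Fgf8*, *Gdf3*, *Gfra2* and *Lefty1* were placed by outer ends. So were *Majin*, *Pax3*, *Prdm14*, *Spo11*, *Spry4*, *Tgfb3*, *Wt1* and *Zfp462*. Of the protein-coding genes called, 625 of 651 and 496 of 505 had a peak of their own class at the start.

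The genes named were those of the lists called in either direction, the 10 genes with the largest difference in class peaks per direction, and the windows with the largest difference; the other genes and the microRNAs were named after their values were seen. Members and lists were chosen with earlier results of these data known. Counts were checked against bedtools 2.31.1 (3 comparisons, equal) and tested on simulated data, in which 3000 of 3000 E13.5-only peaks and 4000 of 4000 P3-only peaks were found. Python 3.11.15, pandas 2.3.3 and SciPy 1.17.1 were used.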

Additional observations from a re-analysis of the deposited data

How the results depend on the processing

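Of 65 values recomputed with 1 choice changed, 25 stayed within their interval (for counts, within 1.5 times) and 40 moved. Autosomes only moved 0 values. The order of gene start shares (shared above E13.5-only above P3-only) held in 9 of 10 settings, the exception being the E13.5 heterozygous list alone. The share of E13.5 peaks found at P3 was 56.6% with that list alone, 57.3% with the knockout list alone, 51.6% with the union of both, 63.5% with a reciprocal overlap of 50% and 66.0% when peaks within 500 bp counted as shared. The share of P3 peaks found at E13.5 was 51.1, 50.6, 55.5, 44.5 and 47.3% under the same 5. The gene start share of shared peaks was 55.8, 56.5 and 52.8% with the heterozygous list, the knockout list and the union. That of E13.5-only peaks was 11.5, 12.3 and 11.5% with these, then 14.2% with reciprocal overlap and 11.99% within 500 bp. That of P3-only peaks was 11.7 and 11.4% with the single lists, 11.6% with reciprocal overlap and 10.2% within 500 bp. For shared, E13.5-only and P3-only peaks in turn, gene start shares were 57.8, 10.3 and 8.98% with a 500 bp window, 54.1, 7.99 and 3.72% with protein-coding genes only, and 48.0, 8.46 and 5.16% with RefSeq starts only, a setting chosen after seeing the data. E13.5-only peaks were found at P0 in 14.4% of cases with the heterozygous list and 14.4% with the union. P3-only peaks were found at P0 in 71.0% with reciprocal overlap and 81.2% within 500 bp. Genes with an E13.5-only start numbered 2275 with the union, 651 with protein-coding genes only and 768 with RefSeq starts only; those with a P3-only start numbered 505 and 851 with the latter 2. The fewer genes or the larger E13.5 set of these settings enter the counts by construction; the cause of the other shifts was not tested. No paired analysis was possible because the lists hold no value per sample, and for the same reason leaving out a replicate was not run. A stricter threshold needs a score and was not run. Depth is unknown, so an absent peak is a peak not listed, and closed chromatin cannot be told apart from low depth.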
